A study of Macaca nemestrina with 58 samples.

Results

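The genes of the desmosome were read in biopsies of the vagina taken from 15 pig-tailed macaques (Macaca nemestrina): the desmogleins DSG1, DSG2 and DSG3, the desmocollins DSC1, DSC2 and DSC3, the plakophilins PKP1 and PKP3, desmoplakin (DSP) and plakoglobin (JUP). All 10 genes were found by their symbol in the annotation of an expression array designed for the rhesus macaque, where they are the single gene symbol of 19 of the 52865 probe sets. Of these 19, 18 passed a filter that removed the dimmest probe sets, so that each of the 10 genes stands among the 11199 genes measured. The exception was the dimmer of the pair of JUP probe sets, with a mean log2 level of 3.28 against a filter level of 5.53. The brightest probe set stood for each gene, and the others were compared with it.

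Desmosomes are junctions that rivet epithelial cells to each other and anchor their keratin filaments. Desmogleins and desmocollins are the cadherins that bind across the gap between cells. On the inner side of the membrane, plakoglobin and the plakophilins couple them to desmoplakin, which holds the filaments. In stratified squamous epithelium, the lining of the vagina, the isoforms change with depth. DSG1, DSC1 and PKP1 are typical of the upper, more mature layers and are called upper-layer genes here. DSG3, DSC3 and DSG2 are typical of the basal and lower layers and are called basal genes here. DSC2, PKP3, DSP and JUP are treated as genes of all layers.

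In the injection arm 9 animals received DMPA, the depot form of medroxyprogesterone acetate, a progestin, and the 6 others received what the labels call LNG, an arm that the series' title names a combined oral contraceptive. DMPA doses are labelled 0.5, 1.5 and 2.5, with 3 animals each and no unit. DMPA biopsies were taken at the times labelled 1D4 (8 samples) and 2D2 (9 samples). LNG doses are labelled High and Low, with 3 animals each, at the times labelled 5th (6 samples) and 7th (6 samples). The mark (A-) on 1 array of the 5th and 4 of the 7th time has no explanation in the labels. Before treatment, the same animals gave 28 baseline samples, from the follicular (10 early, 5 late) and the luteal phase (4 early, 9 late). Of the animals, 13 had 2 baseline samples and 2 had 1. The design text places the treated biopsies 5 weeks after the first oral dose and 2 weeks after the second injection, without naming which label that is. No untreated animal was followed beside the treated ones in these samples, so treatment and the passing of time cannot be told apart. The age of the animals is not given in the labels.

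The series asks how these contraceptives affect factors of HIV susceptibility, as its title says. All values are log2 levels as deposited, with array medians from 6.07 to 6.25. The number of animals limits the precision. In the 28 baseline samples the 9 mature squamous markers averaged 12.45 (range over samples 9.56 to 13.15), so squamous epithelium was present in these vaginal biopsies. In these bulk samples, fewer cells of a type and less RNA per cell cannot be told apart. The biopsy of animal BB4800 at LNG 5th (Low, replicate 3) stood apart: all 10 desmosome genes were at their lowest of the 6 LNG 5th samples there. Its basal keratinocyte markers (ITGA6, ITGB4 and TP63) averaged 9.57, against 11.23 to 12.00 in the other 5 samples of that time. Its stroma markers averaged 12.67, against 7.06 to 12.24. For several of the comparisons that this biopsy changes, results are also given without this biopsy.

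Before treatment, the upper-layer genes were the ones that varied most between biopsies. DSG1, the main desmoglein of the upper layers, ran from 5.98 through a median of 11.09 to 12.45 (SD 1.72, n = 28). DSC1, its desmocollin counterpart, ran from 4.51 through 7.71 to 11.44 (SD 1.98). PKP1, the plakophilin of the suprabasal layers, ran from 9.41 through 12.16 to 12.79 (SD 0.88). The basal genes were nearly level across the same biopsies. DSG3 ran from 10.94 through 12.53 to 12.89 (SD 0.40), DSC3 from 11.06 through 11.91 to 12.43 (SD 0.36) and DSG2 from 8.20 through 9.07 to 9.47 (SD 0.35). Among the genes of all layers, the SD was 0.84 for PKP3, 0.51 for DSC2, 0.51 for JUP and 0.33 for DSP.

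**Figure D1:**
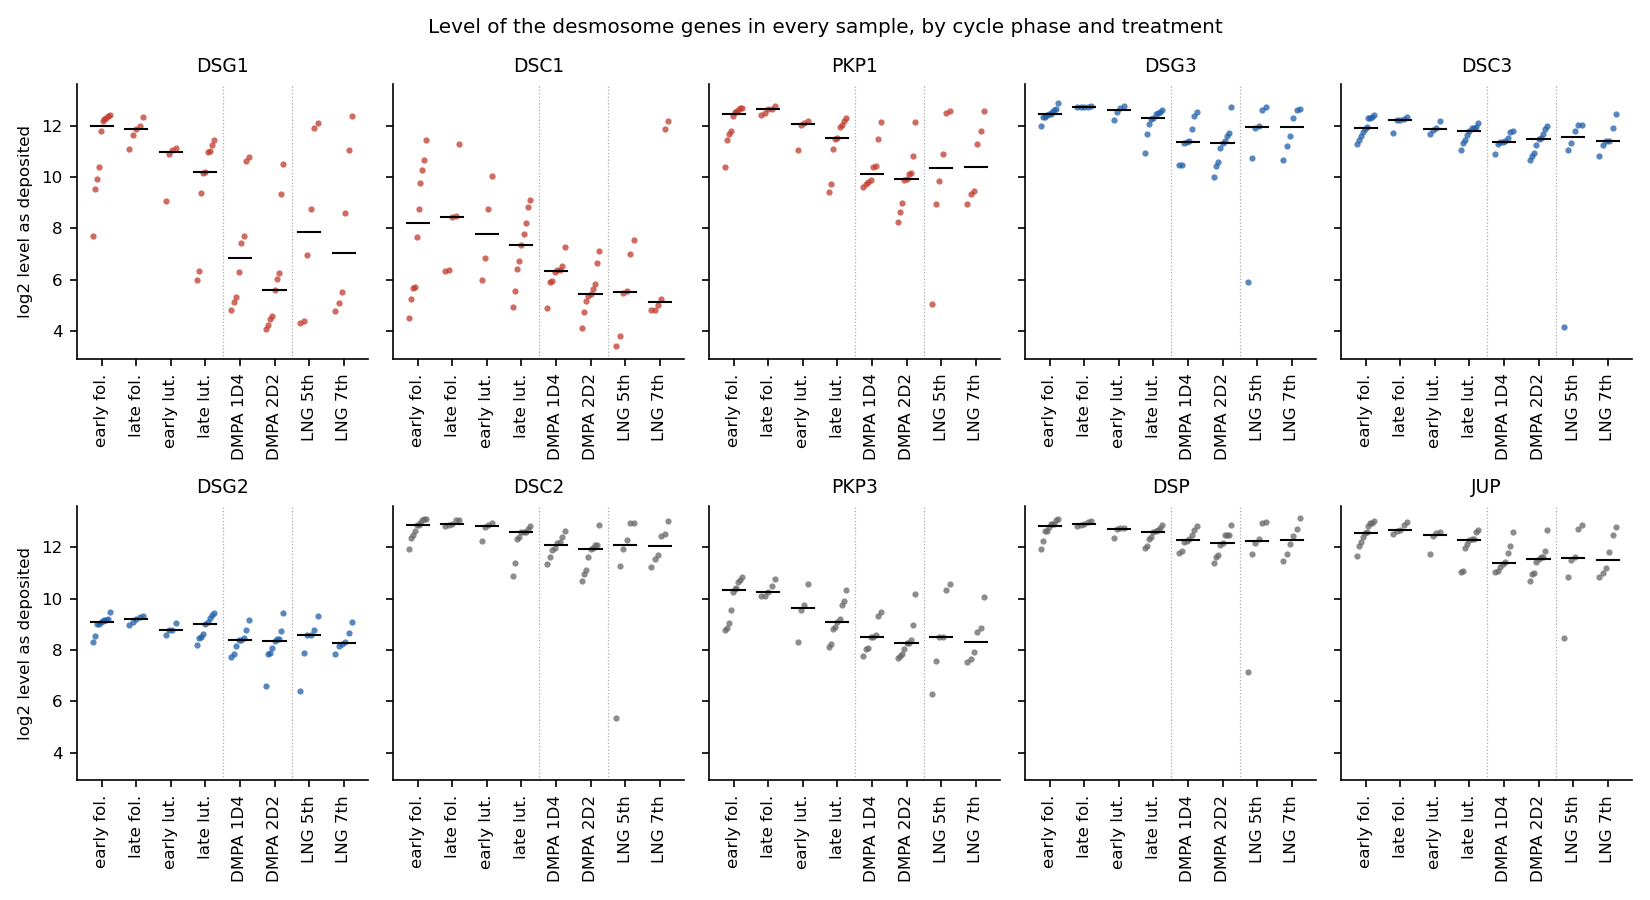
Log2 level as deposited (vertical axis) of the 10 desmosome genes in every sample, by baseline phase and treated time. Points are samples and bars are medians; red marks upper-layer, blue basal and grey all-layer genes. DSG1 has a median of 12.00 in the early follicular and 5.59 in the DMPA 2D2 samples, while DSP stays between 11.38 and 13.12 in all groups but LNG 5th and 7th, where it runs from 7.14 to 13.13.

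At the DMPA time 2D2, all 3 upper-layer genes fell, with the largest estimates of the 10, and all 10 estimates were below 0. DSG1 ran from 4.09 through 5.59 to 10.52 in the 9 samples, against 5.98 through 11.08 to 12.37 in the 17 baseline samples of the same animals. All 9 lay under the baseline median and 5 lay under the lowest baseline sample. From the animals' own baselines DSG1 fell by 4.45 ± 0.79 (SE), which is 21.9-fold (limma adjusted p = 0.000232, lower in 8 of 9 animals). DSC1 ran from 4.13 through 5.46 to 7.11 and fell by 2.30 ± 0.56, or 4.93-fold (adjusted p = 0.00304, lower in 9 of 9). PKP1 ran from 8.23 through 9.92 to 12.15 and fell by 1.94 ± 0.46, or 3.82-fold (adjusted p = 0.00283, lower in 9 of 9). The ranges of all 3 overlapped with baseline, and the highest DSG1 and PKP1 values at 2D2 were those of BB770 and PPi2, both at the dose labelled 0.5.

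Of the basal genes at 2D2, DSG3 and DSG2 fell and DSC3 did not pass. DSG3, the main desmoglein of the lower layers, ran from 9.99 through 11.32 to 12.75 and fell by 1.17 ± 0.38 (adjusted p = 0.0204, lower in 8 of 9). That call was lost without animal BB0499 (adjusted p = 0.0721) and without BB0540 (0.0653). DSG2, the desmoglein also found in simple epithelia, ran from 6.60 through 8.34 to 9.45 and fell by 0.72 ± 0.20 (adjusted p = 0.00764, lower in 8 of 9). DSC3 ran from 10.68 through 11.50 to 11.99, with a change of -0.49 ± 0.41 (adjusted p = 0.387). Of the genes of all layers, the plakophilin gene PKP3 fell by 1.28 ± 0.33 (adjusted p = 0.00502) and JUP, which binds the tails of the cadherins, by 0.88 ± 0.25 (adjusted p = 0.00961, lower in 9 of 9). DSC2 had a change of -0.92 ± 0.41 (adjusted p = 0.0834) and DSP one of -0.51 ± 0.31 (adjusted p = 0.208).

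In all, 7 of the 10 desmosome genes passed as lower at 2D2, against 12.1% of all 31624 probe sets tested. Their median change was -1.05, beside a median of 0.04 over all probe sets. Without the BB4800 biopsy, which shares the fit's estimate of spread but is no DMPA sample, all 10 passed as lower, against 13% of probe sets. The estimates were the same with smaller errors: DSC3 -0.49 ± 0.13 (adjusted p = 0.00614), DSC2 -0.92 ± 0.20 (0.00133) and DSP -0.51 ± 0.14 (0.00665).

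RNA integrity and cell makeup moved with these changes at 2D2. GAPDH control probe sets give a 3' minus 5' difference, which widens in degraded RNA and was here 0.74 ± 0.57 (SD) above the own baseline and higher in 8 of 9 animals. With that difference as a covariate, none of the 10 genes passed and none of all probe sets did, and DSG1 had a change of -1.46 (adjusted p = 0.543). With the actin difference, 0.23 ± 0.30 above baseline, 2 genes passed, DSG1 (-3.72, adjusted p = 0.0179) and PKP1 (-1.76, adjusted p = 0.0485). The 9 mature squamous markers changed by -3.35 ± 1.87 on average (lower in 8 of 9), the 3 basal keratinocyte markers by 0.18 ± 0.33, the 7 columnar markers by 0.97 ± 0.40 (higher in 9 of 9) and the 9 stroma markers by 0.09 ± 1.90. With the stroma score as a covariate the same 7 genes passed, DSG1 with -4.36 (adjusted p = 0.000153). The share of all probe sets with the actin or the stroma covariate is not given here. The part of RNA quality and of cell makeup in the result was not tested beyond these covariates.

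**Figure D2:**
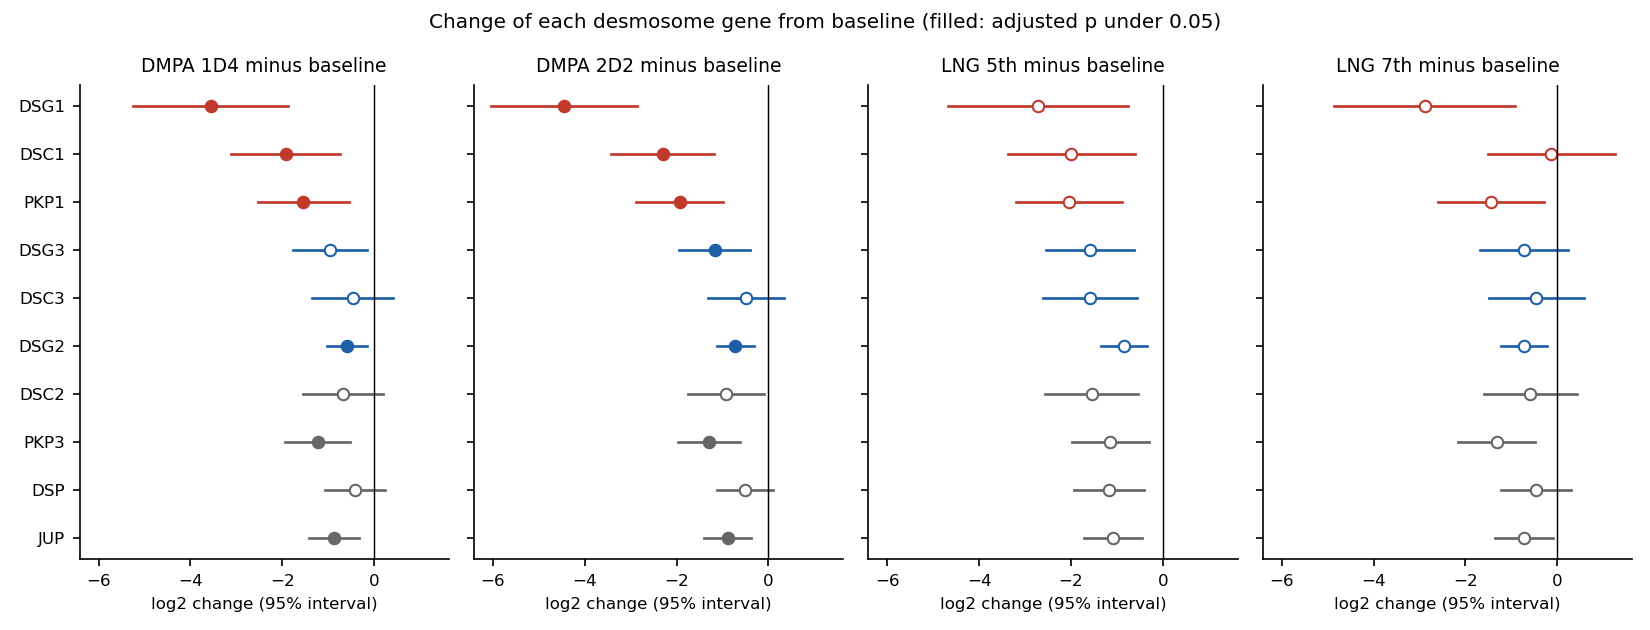
Log2 change from the own baseline (horizontal axis) of the 10 desmosome genes at each treated time, with 95% confidence intervals of the limma fit. Filled circles have an adjusted p under 0.05; red marks upper-layer, blue basal and grey all-layer genes. At DMPA 2D2 DSG1 lies at -4.45 and DSC3 at -0.49, and no gene is filled at either LNG time.

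Within each animal, the upper-layer genes moved further than the basal ones after DMPA. At 2D2 the mean change over DSG1, DSC1 and PKP1 was -2.89 ± 1.50 (SD, n = 9), over DSG3, DSC3 and DSG2 -0.79 ± 0.59, and over the 4 genes of all layers -0.89 ± 0.59. The difference, upper-layer minus basal, was -2.10 ± 0.99 and was below 0 in all 9 animals, from -3.39 to -0.15. At 1D4 the means were -2.34 ± 1.52, -0.66 ± 0.56 and -0.78 ± 0.57 (n = 8). The upper-minus-basal difference was then -1.68 ± 1.10 and was below 0 in 7 of 8 animals, the exception being PPi2 with 0.55. Taking the desmogleins alone, the DSG1 change minus the DSG3 change was -2.62 ± 1.89 at 1D4 (below 0 in 7 of 8) and -3.29 ± 1.86 at 2D2 (below 0 in 8 of 9). These are means over chosen members and carry no p value. The members also differed in mean level: among the genes measured, DSG1, DSC1 and PKP1 stood at the percentiles 64, 22 and 93. DSG3, DSC3 and DSG2 stood at 97, 96 and 58. The part of brightness in the difference was not tested.

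**Figure D3:**
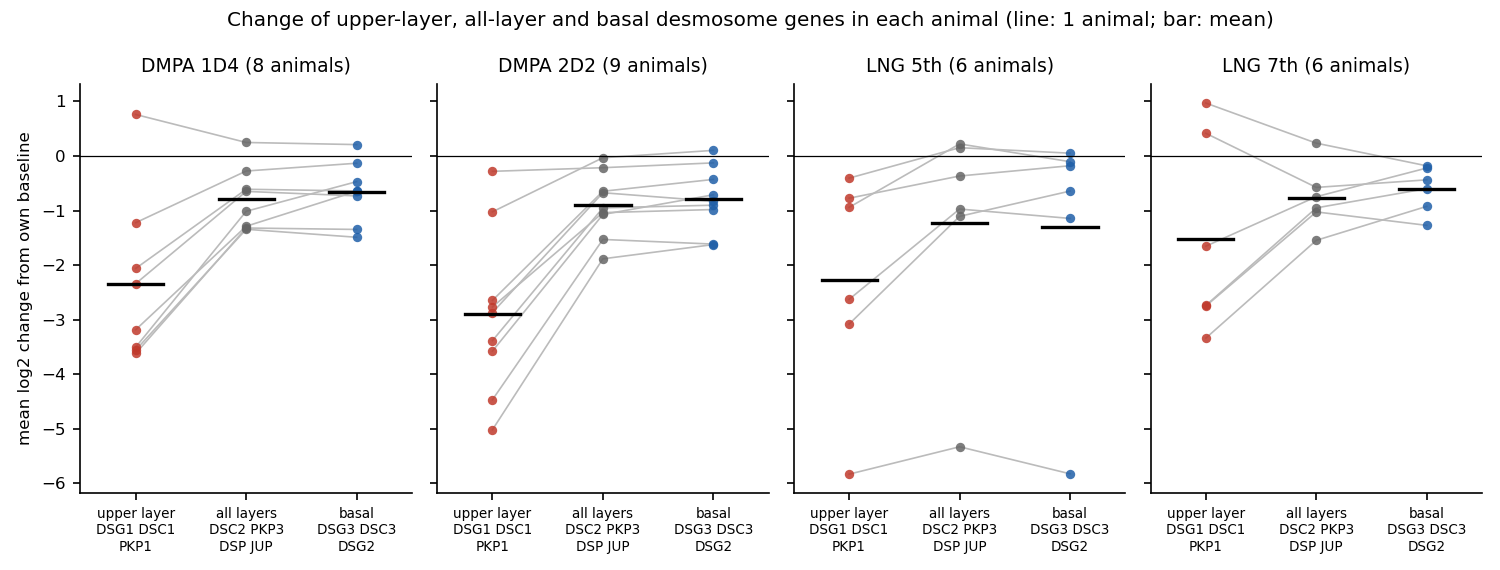
Mean log2 change from the own baseline (vertical axis) over the upper-layer, all-layer and basal desmosome genes in each animal. Each grey line is 1 animal and black bars are means. At DMPA 2D2 the upper-layer mean is -2.89 and the basal mean -0.79; the lowest animal at LNG 5th, BB4800, has -5.83 and -5.82.

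At 1D4, the earlier DMPA time, the same ordering was present. DSG1 ran from 4.83 through 6.86 to 10.78 in the 8 samples and fell by 3.56 ± 0.83, or 11.8-fold (adjusted p = 0.00557, lower in 7 of 8). DSC1 fell by 1.92 ± 0.59 (adjusted p = 0.0197) and PKP1 by 1.54 ± 0.49 (0.0236), each in 7 of 8 animals. PKP3 fell by 1.23 ± 0.35 (adjusted p = 0.0145), JUP by 0.87 ± 0.27 (0.0202) and DSG2 by 0.59 ± 0.21 (0.0409, lower in 6 of 8). DSG3 had a change of -0.96 ± 0.40 (adjusted p = 0.0761), DSC3 of -0.46 ± 0.44 (0.44), DSC2 of -0.67 ± 0.43 (0.247) and DSP of -0.42 ± 0.32 (0.342). So 6 of 10 passed as lower, against 11.9% of probe sets.

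DSG1 kept its call at 1D4 without each animal in turn, while the count of genes moved with single animals. Leaving out PHQ1 left 1 gene (DSG1), BB981 2, BB0540 2 and BB0499 3, and leaving out the BB4800 biopsy gave 10, against 13% of probe sets. With the GAPDH covariate 1 passed, DSG1 (-2.38, adjusted p = 0.0208), and with the stroma score 0 did (DSG1 -2.82, adjusted p = 0.0725). Apart from the fit without the BB4800 biopsy, the share of all probe sets in these fits is not given here. Whether calls were lost across the whole array can therefore not be read from these counts. The stroma markers were 1.39 ± 1.57 (SD) above the own baseline at 1D4 (higher in 6 of 8), the GAPDH difference 0.31 ± 0.43 and the mature squamous markers -2.74 ± 2.09.

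Between the DMPA times (2D2 minus 1D4) 0 of 10 genes passed, as did 0% of probe sets, of which 1655 had an unadjusted p under 0.05. The difference for DSG1 was -0.89 with a 95% interval from -2.78 to 1.00, and for JUP -0.02 (-0.62 to 0.59). Of the 8 animals seen at both times, BB770 (10.62 at 1D4, 10.52 at 2D2) and PPi2 (10.78, 9.36) had the highest DSG1 levels at each. Among the other 6 the order changed: BB0540 went from 7.72 to 4.60 and PHQ1 from 4.83 to 5.59, the 1 animal that was higher at 2D2.

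Of the genes with several kept probe sets, DSC2, DSC3 and PKP3 had estimates below 0 on each set at 2D2, and DSG2 did not. The other DSC2 sets fell, by 1.67 (adjusted p = 0.00934) and 1.40 (adjusted p = 0.0215), where the brightest had not passed. The second DSC3 set had a change of -0.58 (adjusted p = 0.252), and the other PKP3 sets had changes of -0.99 (0.0102) and -0.41 (0.064). Of the 4 DSG2 sets, MmugDNA.6374.1.S1_at (the brightest), MmugDNA.6373.1.S1_at and MmugDNA.37284.1.S1_at fell, by 0.72, 0.63 and 0.67. The set MmugDNA.30978.1.S1_at rose by 1.34 ± 0.38 (adjusted p = 0.00915) and was higher in 9 of 9 animals. It ran from 7.36 through 8.56 to 9.26 at 2D2 against 5.62 through 6.95 to 8.27 in the baseline of these animals. Which of the DSG2 sets reads the gene's main transcript in this species is not known here, so the direction of DSG2 is uncertain.

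At 2D2 every DSG1 level at the doses labelled 1.5 and 2.5 lay under those of 2 of the 3 animals at 0.5, but the slope over dose did not pass. The 3 animals at 0.5 had 4.09, 9.36 and 10.52, those at 1.5 had 4.46, 6.02 and 6.26, and those at 2.5 had 4.22, 4.60 and 5.59. At 0.5, BB108 had the lowest level of all 9 animals, so the dose groups overlapped. Its own baseline levels were 7.71 in the early follicular and 9.39 in the late luteal phase. PPi2, the animal above its own baseline mean, had 11.80 and 5.98 in those phases. The change from own baseline was 0.47, -1.10 and -4.46 at 0.5, from -5.78 to -4.21 at 1.5 and from -7.22 to -5.32 at 2.5. The slope was -2.42 ± 0.74 log2 per dose unit (unadjusted p = 0.00226, adjusted p = 0.348).

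For PKP1 the slope was -0.99 ± 0.43 (adjusted p = 0.467), for DSG2 -0.51 ± 0.20 (0.444) and for DSG3 -0.73 ± 0.38 (0.523). The slope was below 0 for all 10 genes, with a median of -0.54, and none passed (0 of 10, against 0.00632% of probe sets). At 1D4, DSG1 stood at 10.62 and 10.78 in the 2 animals at 0.5. It stood at 5.34, 6.29 and 7.44 at 1.5, and at 4.83, 5.14 and 7.72 at 2.5. There the lowest dose did not overlap with the others.

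**Figure D4:**
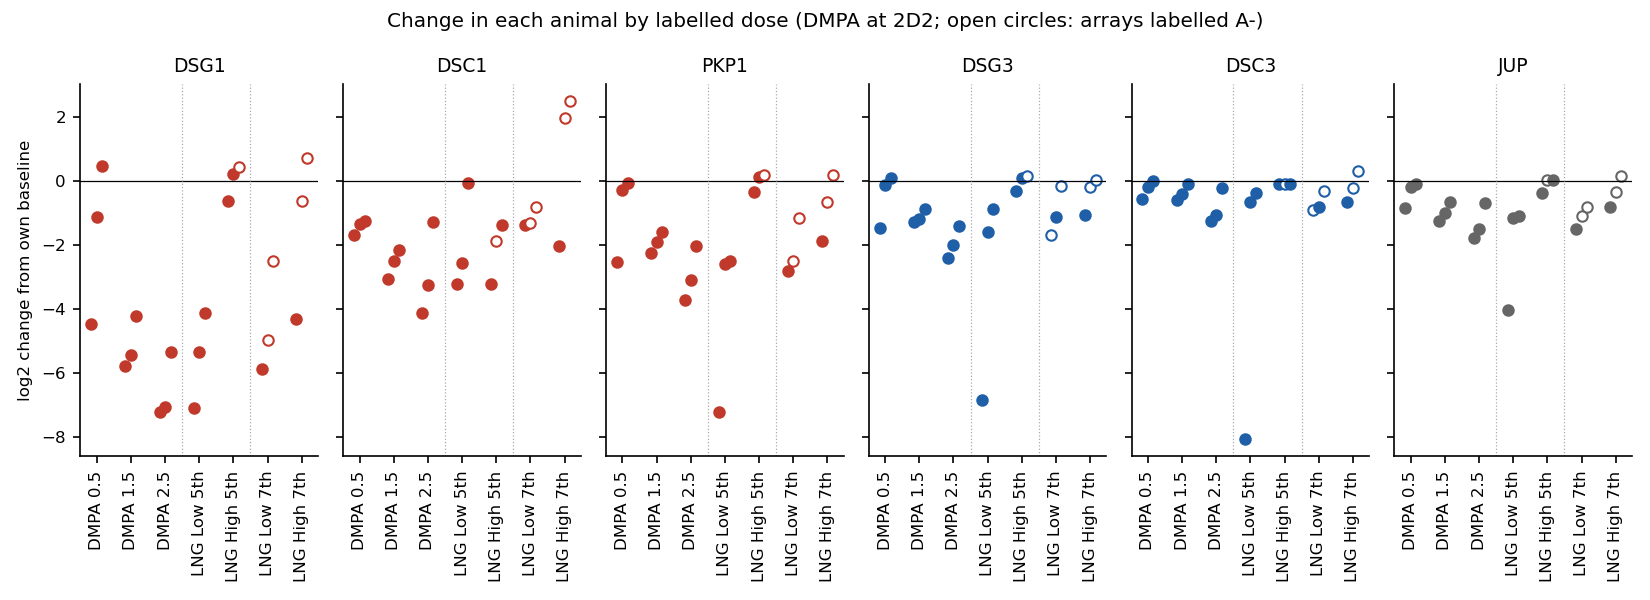
Log2 change from the own baseline (vertical axis) of 6 desmosome genes in each animal, by labelled DMPA dose at 2D2 and by labelled LNG dose at both times. Each circle is 1 animal, and open circles are arrays marked (A-). The DSG1 change runs from -7.22 to -5.32 at DMPA 2.5, and DSC1 lies above baseline in 2 LNG High animals at the 7th time (1.98 and 2.50).

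At LNG 5th no desmosome gene passed, although all 10 estimates were below 0. They ran from -2.72 ± 0.97 (DSG1, adjusted p = 0.101) to -0.84 ± 0.25 (DSG2, 0.0637), and the smallest adjusted p was 0.0588 (PKP1, -2.04 ± 0.57). So 0 of 10 passed, as did 0% of probe sets, of which 6828 had an unadjusted p under 0.05. In these samples DSG1 stood at 11.90, 8.77 and 12.12 in the High animals and at 4.41, 4.30 and 6.98 in the Low ones. The members' median of -1.57 became -0.53 without the BB4800 biopsy, and DSG3 went from -1.59 to -0.53, DSC3 from -1.59 to -0.27 and DSP from -1.17 to -0.26. Again 0 of 10 passed then, as did 0% of probe sets, of which 2978 had an unadjusted p under 0.05. Without BB4870, an animal with high levels at 5th, 9 of 10 passed as lower, and without BB269 5 did. Without the late luteal baseline biopsy of PPi2, a DMPA animal, 4 passed (PKP1, DSG3, DSG2 and JUP). The share of all probe sets that passed without BB4870, BB269 or that PPi2 biopsy is not given here. These counts can therefore not be read as particular to the desmosome genes. The stroma markers were 2.19 ± 1.27 (SD) above the own baseline at 5th (higher in 5 of 6) and the mature squamous markers -2.35 ± 2.19. The GAPDH difference was 0.40 ± 0.47 above it (higher in 5 of 6).

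At LNG 7th DSG1 was again the gene with the largest estimate and DSC1 was not low as a group. DSG1 stood at 12.40, 11.05 and 5.08 in the High animals and at 5.52, 4.80 and 8.60 in the Low ones. Its change was -2.89 ± 0.97 (adjusted p = 0.0888), lower in 5 of 6 animals. PKP3 had a change of -1.32 ± 0.41 (adjusted p = 0.0751), DSG2 of -0.73 ± 0.25 (0.09, lower in 6 of 6) and PKP1 of -1.45 ± 0.57 (0.125). The other estimates ran from -0.72 to -0.45, apart from DSC1 with -0.12 ± 0.69, and 0 of 10 passed, against 0.00632% of probe sets. With the BB4800 biopsy of 5th left out, again 0 of 10 passed, while 156 of all 31624 probe sets passed as higher and 528 as lower. Without BB269 2 of 10 passed, and without the late luteal biopsy of PPi2 2 did (DSG1, adjusted p = 0.0449, and PKP3, 0.0483). For these 2 counts the share of all probe sets is not given here. The stroma markers were 1.19 ± 1.63 (SD) above the own baseline at 7th and the mature squamous markers -2.24 ± 2.09 (lower in 6 of 6). The GAPDH difference was 0.47 ± 0.32 above it (higher in 6 of 6).

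In the LNG arm the levels of DSC1 did not follow those of DSG1 animal by animal. At 5th it lay below the own baseline in all 6 animals, by 3.20, 1.86 and 1.37 in the High ones, where DSG1 had changes of 0.23, 0.46 and -0.62. At 7th it stood at 12.18 in BB269 and 11.89 in BB4870, both High and marked (A-), above every baseline sample of the arm (highest 11.44). The other 4 animals had 4.80 to 5.25. The difference 7th minus 5th was 1.87 ± 0.78 for DSC1 (unadjusted p = 0.0213, adjusted p = 0.9999). Of the 10 genes 0 passed in that comparison, as did 0% of probe sets, of which 946 had an unadjusted p under 0.05.

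After LNG the upper-minus-basal difference varied more between animals than its mean at 7th. At 5th it was -0.97 ± 0.87 (SD, n = 6), below 0 in 6 of 6 animals. BB4800 had -0.01, with mean changes of -5.82 for the basal and -5.83 for the upper-layer genes. DSC1 (3.40) and DSC3 (4.17) lay under the filter level of 5.53 in that biopsy, so the sizes of these falls are uncertain. With DSG1 and DSC1 against DSG3 and DSC3 only, the 5th difference was -0.84 ± 1.70, below 0 in 5 of 6, with 2.30 in BB4800. At 7th the upper-minus-basal difference was -0.91 ± 1.53, below 0 in 4 of 6, with 1.15 in BB269 and 0.85 in BB4870. The DSG1 change minus the DSG3 change was -1.19 ± 1.82 at 5th (below 0 in 4 of 6) and -2.23 ± 2.01 at 7th (5 of 6).

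Between the LNG doses at 5th, 4 of 10 genes passed as higher in High than in Low animals, against 0.613% of probe sets. These were PKP1 (4.25 ± 0.88, adjusted p = 0.0276), DSG3 (3.26 ± 0.77, 0.0376), DSC2 (3.47 ± 0.87, 0.0467) and JUP (2.06 ± 0.51, 0.0467). PKP1 stood at 12.52, 12.60 and 10.89 in the High animals and at 8.94, 9.87 and 5.06 in the Low ones, so the groups did not overlap. DSG1 had the largest estimate, 5.74 ± 1.50, which did not pass (adjusted p = 0.0556), and DSC1 the only one below 0, -0.25 ± 1.38. In each of these 4 genes the lowest value is that of the BB4800 biopsy. Without it 0 of 10 passed, against 0% of probe sets, of which 2705 had an unadjusted p under 0.05, and the estimates for PKP1, DSG3, DSC2 and JUP became 2.73, 1.32, 1.24 and 1.10. Without BB269 or without BB4870 0 passed too, and without BB173 or BB537 8 did. For these counts without single animals the share of all probe sets is not given here. RNA quality and squamous markers moved with this contrast. The GAPDH difference was 2.13, 1.41 and 1.20 in the High and 2.28, 2.58 and 2.68 in the Low animals, with no overlap. With it as a covariate 0 of the 10 passed, and PKP1 had 2.91 (adjusted p = 0.562), DSG3 2.42 (0.632), DSC2 2.63 (0.658) and JUP 1.29 (0.664). The 9 mature squamous markers had a median estimate of 4.36, High minus Low, and 3 of them passed as higher. The part of either in the result was not tested beyond that covariate. At 7th the groups overlapped for PKP1, with 12.58, 11.78 and 9.35 against 9.47, 8.96 and 11.29, and the doses were not tested there.

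No difference between the arms passed. For the change at DMPA 2D2 minus that at LNG 5th, 0 of 10 genes passed, as did 0% of probe sets, of which 2688 had an unadjusted p under 0.05. The difference was -1.74 for DSG1 (95% interval -4.27 to 0.79), 0.10 for PKP1 (-1.39 to 1.59) and 1.10 for DSC3 (-0.23 to 2.42), intervals that leave room for differences of several fold. The signs for PKP1 and DSC3 depended on the BB4800 biopsy. With it left out, DSG1 had -2.43 (-5.04 to 0.17), PKP1 -0.87 (-2.11 to 0.37) and DSC3 -0.22 (-0.66 to 0.23). The median over the 10 genes went from 0.16 to -0.52, all 10 were below 0, and again 0 of 10 passed, as did 0% of probe sets.

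Across the untreated cycle none of the desmosome genes passed, and the late luteal samples had the lowest DSG1 median. DSG1 had a median of 12.00 in the early follicular (n = 10), 11.89 in the late follicular (n = 5), 10.99 (n = 4) in the early and 10.22 (n = 9) in the late luteal phase. The early and late follicular medians lie within the spread of either group, and so do the luteal ones. The late follicular levels (lowest 11.10) and the early luteal ones (highest 11.13) barely overlap, but they come mostly from different animals. With the animal as a block, early luteal minus late follicular was 0.81 (95% interval -1.83 to 3.45, adjusted p = 0.967). Only 1 animal, BB4800, had both of these phases, with DSG1 at 11.64 in the late follicular and 11.13 in the early luteal biopsy. The blocked estimate therefore links animals mostly through their other samples. DSG3 was flat by comparison, with 12.48, 12.74, 12.62 and 12.30. Luteal minus follicular, all 10 estimates were below 0, from -0.91 for DSG1 (95% interval -2.41 to 0.59, adjusted p = 0.481) to -0.08 for DSG3. PKP3 had -0.60 (-1.22 to 0.02, adjusted p = 0.245), and 0 of 10 passed, against 1.71% of probe sets.

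Between neighbouring phases 0 of 10 passed in each of the 3 comparisons, as did 0% of probe sets in each. Unadjusted p values were under 0.05 for 1315 probe sets from early to late follicular, for 1753 from late follicular to early luteal and for 3548 from early to late luteal. From late follicular to early luteal all 10 estimates were above 0 (median 0.21), and from early to late luteal all 10 were below 0 (median -1.15). The first of these depended on the treated BB4800 biopsy. Without it DSG2 (-0.04), PKP3 (-0.06) and DSP (-0.05) lay below 0 and the others above, with a median of 0.13. From early to late luteal all 10 stayed below 0 without it, with a median of -0.71. With all samples, the largest estimates lay from early to late luteal, with -3.14 ± 1.21 for DSG1 (unadjusted p = 0.0131, adjusted p = 0.371) and -2.22 ± 0.87 for DSC1 (adjusted p = 0.378). No animal had both luteal phases, so that comparison links animals through their other samples.

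Of the animals, 6 had an early follicular and a late luteal biopsy, the most common pair. DSG1 went from 12.45 to 6.34 in BB967, from 11.80 to 5.98 in PPi2 and from 12.37 to 10.18 in BB0499. It went from 12.30 to 11.03 in BB4870, from 12.19 to 11.46 in BB0540 and, the other way, from 7.71 to 9.39 in BB108. The mean difference, late luteal minus early follicular, was -2.41 ± 3.04 (SD) for DSG1, -2.17 ± 2.35 for DSC1 and -1.22 ± 1.50 for PKP1, each lower in 5 of 6. PKP3 was lower in 6 of 6 (-1.12 ± 1.04) and DSG3 in 4 of 6 (-0.50 ± 0.80). The late luteal biopsies of PPi2 and BB967 also had the lowest mature squamous averages of the phase, 9.56 and 10.48 against a median of 12.56, and PPi2 had its highest GAPDH difference, 2.67. Stroma markers averaged 9.92 ± 1.27 in the late luteal and 8.64 ± 1.20 in the early follicular samples.

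**Figure D5:**
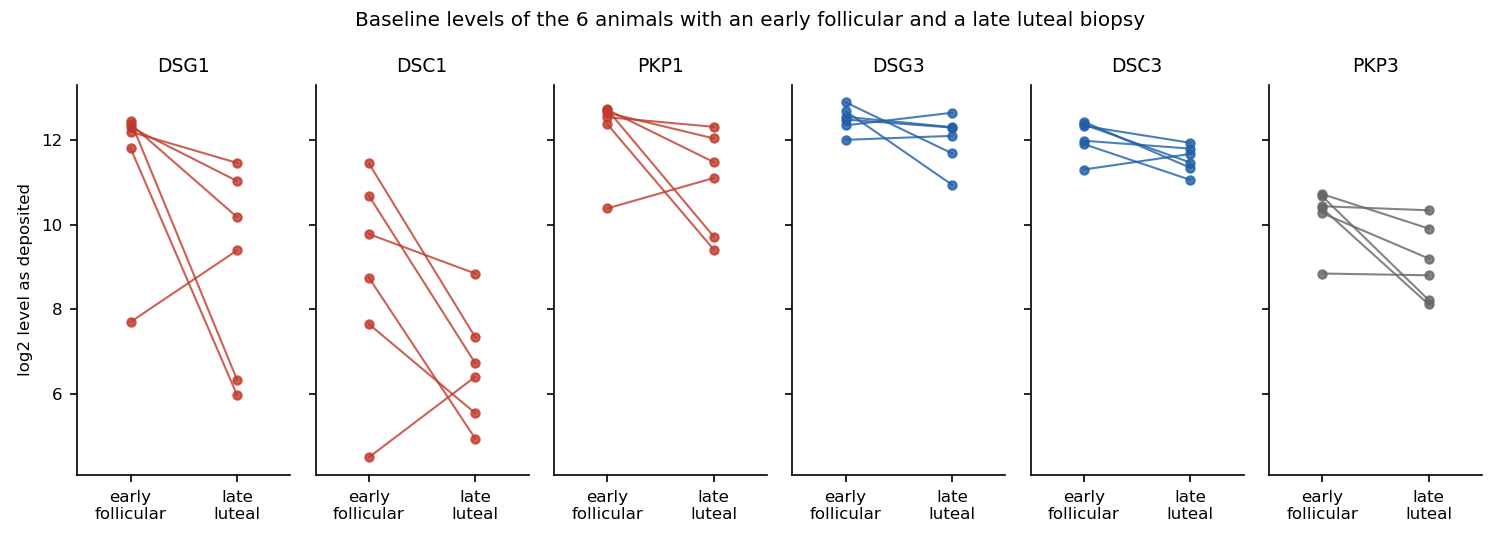
Log2 level as deposited (vertical axis) of 6 desmosome genes in the 6 animals with both an early follicular and a late luteal baseline biopsy; each line is 1 animal. DSG1 is lower in the late luteal biopsy in 5 of 6 animals, from 12.45 to 6.34 in 1 of them, and PKP3 is lower in 6 of 6.

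Genes that work beside the desmosome were read at DMPA 2D2 from lists of related function, where 12.1% of probe sets passed as lower and 16% as higher. Of 7 desmosome-associated genes 3 were measured and 2 fell. CDSN, the corneodesmosin of the desmosomes of cornifying layers, fell by 4.78 ± 0.82 (adjusted p = 0.000198), and the desmosomal plakin EVPL fell by 1.33 ± 0.30 (0.0017). PERP, a membrane protein of desmosomes, had a change of -0.43 ± 0.27 (0.228). Of 7 proteases and inhibitors that govern desmosome cleavage, 5 were measured, 4 fell and 1 rose. The kallikreins KLK5 and KLK7, which cleave desmosomal proteins at the surface, fell by 4.06 ± 0.74 (adjusted p = 0.000315) and 2.57 ± 0.53 (0.000795). Their inhibitor SPINK5 fell by 1.06 ± 0.37 (0.0297) and the cathepsin CTSV by 1.29 ± 0.46 (0.0321). ADAM10, a membrane protease named here because it was the 1 that rose, did so by 0.26 ± 0.09 (0.0376).

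Of 10 adherens junction genes 8 were measured, 2 fell and 1 rose. The adaptor AFDN fell by 0.77 ± 0.15 (adjusted p = 0.000504) and NECTIN4 by 0.75 ± 0.29 (0.0491), CTNNA1 (alpha-catenin) rose by 0.27 ± 0.06 (0.00162), and NECTIN2 had a change of -0.14 ± 0.10 (0.267). Of 9 genes of the hemidesmosome, which fixes basal cells to the basement membrane, 5 were measured, 3 rose and none passed as lower on its brightest probe set. The integrin chain ITGB4 rose by 0.45 ± 0.13 (0.00924), ITGA6 by 0.25 ± 0.10 (0.0481) and the linker PLEC by 0.25 ± 0.08 (0.0122). LAMA3, a chain of the laminin beneath the hemidesmosome, had a change of 0.27 ± 0.13 (0.114), while its 3 other sets were below 0 and 1 of them, MmugDNA.28112.1.S1_at, fell by 0.38 (0.0315), so its direction is uncertain. The difference between these lists and the desmosome was not tested.

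Most markers of mature squamous cells fell at 2D2, and most columnar markers rose. Of the 9 mature squamous markers 8 fell, including CRNN and SPRR3, proteins of the mature cell. CRNN fell by 6.40 ± 0.97 (adjusted p = 0.000155) and SPRR3 fell by 4.16 ± 0.71 (0.000186). Of 7 basal keratinocyte markers 3 were measured and 2 rose, the integrin genes named above, while TP63, the regulator of the basal layer, had a change of -0.19 ± 0.33 (0.708) on its brightest set. Its 5 other sets were below 0 too, and 1 of them, MmugDNA.763.1.S1_at, fell by 0.94 (0.0496). Of 8 transcription factors of epithelial differentiation 6 were measured and 5 fell, among them OVOL1 by 2.14 ± 0.46 (0.0012), GRHL3 by 2.10 ± 0.45 (0.00121) and KLF4 by 1.31 ± 0.26 (0.000627). Of 8 columnar markers 7 were measured and 6 rose, among them PIGR by 2.00 ± 0.51 (0.00428) and KRT18 by 1.12 ± 0.30 (0.0067). Of 12 stroma markers 9 were measured and 0 passed on the brightest set, 0 of them also at an unadjusted p under 0.05. A dimmer set of DCN, MmugDNA.34727.1.S1_at, named after its value was seen, rose by 0.34 (adjusted p = 0.0166).

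Over all 57 samples, which share animals and treatments, the genes whose levels followed DSG1 most closely were IVL (involucrin, a cornified envelope protein; Pearson r = 0.97), SLC45A2, NIPAL4, ENDOU and GJB6 (0.97 each). Those most like DSG3 were NECTIN4, CERS3, LYPD3, KRT13 and RAB25 (0.95 each). The lists hold no gene in common, but they name only the closest genes, and DSG1 and DSG3 followed each other too (r = 0.78). They therefore do not show that the genes belong to separate groups. At DMPA 2D2 DSG3 fell by 1.17, while the basal keratinocyte markers changed by 0.18 ± 0.33 (SD) on average. Whether the basal label holds for DSG3 in these biopsies was not tested. Among the desmosome genes themselves r was 0.98 for DSC2 with DSP and for PKP1 with JUP, 0.78 for DSG1 with DSG3 and 0.33 for DSC1 with DSG2. Over the 28 baseline samples alone r was 0.99 for DSG1 with PKP1 and -0.04 for DSC1 with DSG2. Against the basal genes, r of DSG1 at baseline was 0.86 with DSG3, 0.89 with DSC3 and 0.35 with DSG2. Over all 57 samples these pairs had 0.78, 0.54 and 0.70. These values describe the samples and carry no test, since samples of 1 animal are not independent.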

How the data were processed

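Total RNA from vaginal biopsies had been amplified and hybridised to a rhesus macaque array, per the labels' protocols. The authors deposited 1 log2 value per probe set and array. The submitters' processing notes name affy and Partek, and how they were summarised and normalized is not stated there. The 58 arrays gave 57 samples, since a duplicate array of 1 late follicular biopsy was averaged with its partner (DSG1 10.61 and 11.58). Of 52865 probe sets, 24969 had a single gene symbol in the platform annotation, 361 several and 27535 none. After leaving out 158 control probe sets, those above the 40th percentile of mean level (31624) were tested.

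All 57 samples entered 1 limma fit (lmFit and eBayes, limma 3.58.1, statmod 1.5.0, R 4.3.3) with the animal as a fixed block, because each animal was sampled repeatedly. Benjamini-Hochberg adjustment ran over all 31624 probe sets, with a threshold of 0.05, and intervals are 95%. The fit was tested on simulated data. Class means are over changes from the own baseline mean. The brightest kept probe set stood for a gene. From each of 9 related lists (74 genes, 53 measured), up to 4 genes with the smallest p at 2D2 are named, with exceptions stated. For DSG1 and DSG3, the 5 genes with the highest Pearson r are named. The members and lists were chosen with earlier results of these data known. Alternatives changed the filter, block, scaling, weights, probe set, baseline, covariates or samples. No sequences are shown.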

Additional observations from a re-analysis of the deposited data

Results flagged for a closer look

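In 9 of the 80 groups of desmosome values looked at, the lowest sample lay far from the rest by Dixon's criterion, which chance meets in about 1 in 20 groups. Of these, 4 were the early luteal biopsy of animal BB173, 1 of 4 samples: DSG1 stood at 9.07 (the next lowest was 10.91), PKP1 at 11.07 (12.04), DSP at 12.39 (12.72) and JUP at 11.75 (12.46). Another 4 were the LNG 5th biopsy of BB4800, 1 of 6: DSG3 stood at 5.91 (next 10.76), DSC3 at 4.17 (11.08), DSC2 at 5.35 (11.27) and DSP at 7.14 (11.76). The last was DSC3 in the late follicular biopsy of BB537, the sample with a duplicate array, at 11.72 (next 12.22) among 5.

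The LNG dose groups differed at 5th for 4 genes by limma's test of the difference in change, High minus Low: PKP1 by 4.25 (adjusted p = 0.0276), DSG3 by 3.26 (0.0376), DSC2 by 3.47 (0.0467) and JUP by 2.06 (0.0467). None of the 4 passed without the BB4800 biopsy.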

How the results depend on the processing

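The number of the 10 desmosome genes that passed depended on the setting in 5 comparisons. At DMPA 2D2 (7 genes) 0 passed with the GAPDH covariate and 2 with the actin covariate. DSG2 then changed sign under the GAPDH covariate (0.041, adjusted p = 0.968). Without single animals or biopsies 6 to 10 passed. With array weights DSC2 (adjusted p = 0.00337) and DSP (0.0454) passed too. At 1D4 (6 genes) 3 passed with the labels' replicate number as a block, 1 with the GAPDH covariate, 0 with the stroma covariate and 1 to 10 without single animals or biopsies. With array weights DSG3 (adjusted p = 0.00123), DSC2 (0.0122) and DSP (0.0386) passed there too. At LNG 5th (0 genes) 4 passed with a 60th percentile filter, 6 with the animal as a random block, 2 with array weights, 6 with baseline phases separate and 0 to 9 without single animals or biopsies. At LNG 7th (0 genes) 5 passed with array weights, 2 with baseline phases separate and 0 to 2 without single animals or biopsies. For LNG High minus Low at 5th (4 genes) 1 passed with no filter, 7 with only the brightest probe set of each gene, 8 without the animal block, 9 with the animal as a random block, 8 with the replicate number as a block, 2 with array weights, 0 with the GAPDH covariate and 0 to 8 without single animals or biopsies. The replicate number changed none of the other counts. The cause of these shifts was not tested. For most of these settings the share of all probe sets that passed is not given, and smaller shifts are not all listed. In the other 8 comparisons the count was 0 under every alternative run, and the upper-minus-basal means stayed within 1 SD of their value. Leaving out the BB4800 and PPi2 biopsies was chosen after seeing the data. The signal over background of the probe sets is unknown, since the files hold normalized values.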
